A study of Mus musculus with 6 samples.

Results

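The forkhead genes described here are 10 transcription factors of mouse liver, Foxn3, the FOXA factors Foxa1, Foxa2 and Foxa3, the FOXO factors Foxo1, Foxo3 and Foxo4, Foxp1, and the FOXK factors Foxk1 and Foxk2. They were taken by gene symbol from a table of 23474 Ensembl mouse gene identifiers, and all 10 were found in it. Foxn3 was selected on its large difference in FPKM between the 2 diets in this same table, and the other 9 were added by family with that comparison known. Their differences between diets are therefore given as a description, with no p-value. Where they lie against the threshold of the fit over all genes is stated as a count only, and nothing is supported with it.

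Liver mRNA of male C57BL/6J mice was sequenced at 17 weeks of age. The control group (HFD) had eaten a high-fat diet for 12 weeks, and the other group (BT) the same diet with Bangpungtongseong-san extract added at 1.5% (w/w). Bangpungtongseong-san is a herbal medicine, studied here against fatty liver disease. Both groups were thus diet-fed obesity models, and no group on normal chow was analysed here. There were 3 libraries per diet. Whether each came from 1 animal or from pooled tissue is not stated, so the errors describe the spread between libraries, which may be technical.

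Forkhead proteins share a winged-helix DNA-binding domain and differ in what they do once bound. The FOXA proteins are pioneer factors that open chromatin at liver genes during development and in the adult hepatocyte. The FOXO proteins are held out of the nucleus when insulin signals through the kinase AKT, and in fasting they turn on genes of glucose production and stress resistance. FOXK1 and FOXK2 move in the opposite sense, entering the nucleus with insulin. FOXP1 and FOXN3 act mainly as repressors, and in liver FOXN3 has been linked to fasting glucose and to repression of Myc.

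Expression was given as FPKM, fragments scaled to transcript length and to the mapped total of the library, so levels of different genes can be set side by side. Depth was judged from genes with 1 transcript whose FPKM times length in kilobases lay in a fixed window, 0.03 to 0.1. This gave roughly 13800000 to 15800000 fragments per library, an estimate that the window itself bounds. At that depth the lowest member value, that of Foxk1, stood for about 167 fragments, a counting error near 7.75%. Of 10476 genes averaging 1 FPKM or more, 1398 (13.3%) passed an adjusted p of 0.05 between diets (limma on log2(FPKM + 1)), 630 higher in BT (6.01%) and 768 lower (7.33%). With median-of-ratios scaling the split was 448 and 884. Without BT replicate 1 it was 49 and 124. The library codes in the labels' descriptions carry the letter D for HFD and R for BT. What the letter marks is not known here, and anything it marks other than the diet cannot be told apart from it. Hepatocyte markers other than Alb summed to 16039 to 20346 FPKM in HFD and 13416 to 14017 in BT, and Alb was listed at 0 in HFD replicate 3, where it can be a failed estimate. Of 7 hepatocyte markers tested only 1, Ttr, passed the threshold, as lower in BT. In bulk liver, fewer cells of a type and less RNA per cell cannot be told apart.

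Foxn3 showed the widest gap between diets of the 10 genes. Its mRNA level was 5.45, 1.79 and 2.15 FPKM in HFD and 10.0, 36.3 and 45.8 FPKM in BT. The groups did not overlap, but each held one library apart: HFD replicate 1 was the high one of its group, and BT replicate 1 the low one. The means were 3.13 ± 2.01 and 30.7 ± 18.5 FPKM (SD, n = 3 each), a ratio of 9.81. On the log2(FPKM + 1) scale BT minus HFD was 2.80 ± 0.52 (limma's SE). That difference, on which Foxn3 was selected, was above 99.96% of those of all genes tested. The spread of Foxn3 within a diet (0.92 on the log2 scale) was itself larger than that of 99.4% of genes tested. Among the 10 forkhead mRNAs Foxn3 ranked 6th, 9th and 9th by level in the HFD libraries and 4th, 1st and 1st in the BT libraries. Its share of the summed FPKM of the 10 genes was 6.88%, 2.43% and 2.56% in HFD and 10.6%, 32.0% and 35.8% in BT. In the 6 fits that left out 1 library the difference ran from 2.4 (without BT replicate 3) to 3.44 (without BT replicate 1).

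**Figure D1:**
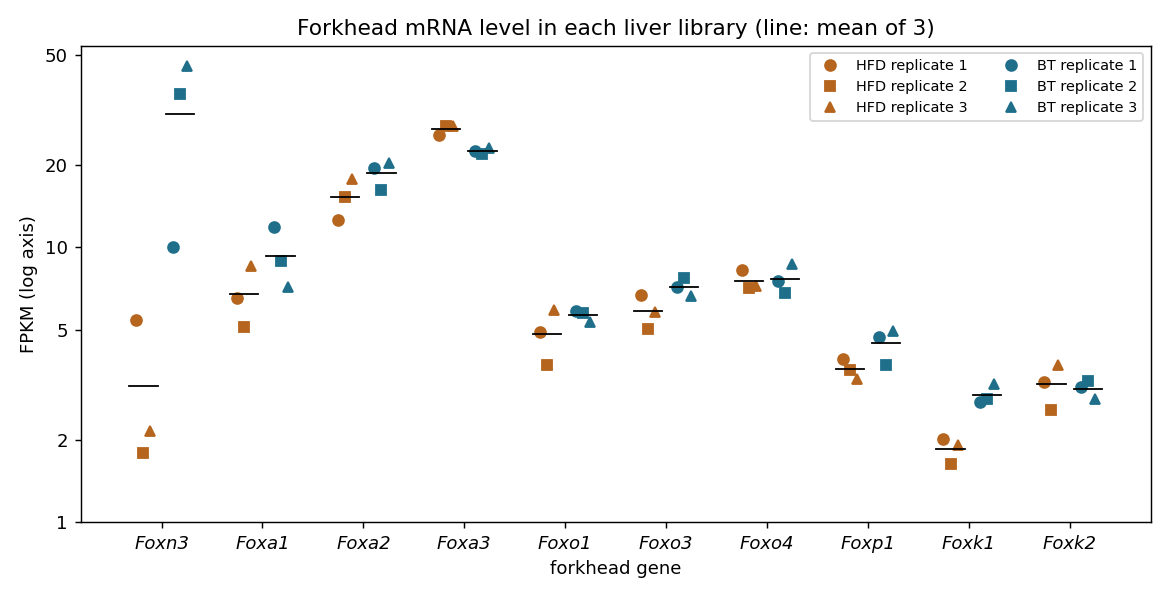
FPKM of each of the 10 forkhead genes (log axis) in the 3 HFD and 3 BT libraries, 1 point per library with a line at each mean. Foxn3 spans 1.79 to 45.8 FPKM, and Foxa3 only 22.0 to 27.7.

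Foxn3 (ENSMUSG00000033713) is a protein-coding gene on the minus strand of chromosome 12, from 99190078 to 99563582 in GENCODE M21 (GRCm38), with 14 annotated transcripts. No exon of another gene shares bases with its exons. A sense intronic transcript inside it, Gm20682, was at most 0.0392 FPKM in every library. The RefSeq start of Foxn3 (GRCm38.p6) lies 113508 bases inside the outermost GENCODE start, so more than 1 start is annotated, and gene-level FPKM cannot tell which was used. The 250 bases before the RefSeq start are shown because Foxn3 carried the main difference. They lie at chr12:99450075-99450324 on the minus strand, 5′ to 3′, with capitals at the alternative site GACGC that FOXN3 and related proteins can bind.
Foxn3 upstream: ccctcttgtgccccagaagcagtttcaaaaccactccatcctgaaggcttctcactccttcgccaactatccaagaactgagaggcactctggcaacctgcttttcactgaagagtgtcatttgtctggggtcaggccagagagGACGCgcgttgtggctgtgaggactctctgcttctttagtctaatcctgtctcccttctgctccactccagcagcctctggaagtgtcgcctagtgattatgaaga
This motif, searched on both strands, is found in 27.2% of all 32851 RefSeq promoter windows of 300 bases, so a match is common. The forkhead core TGTTTAC, the insulin response element core TGTTTTG and the E-box CACGTG had no match in the Foxn3 window.

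By Pearson correlation of log2(FPKM + 1) over the 6 libraries, the named genes most like Foxn3 were Ppil2 (r = 0.995), Mir22hg, St7l, Gpc4, Sp2 and Hgs (r = 0.990). Mir22hg, the host transcript of a microRNA, stood at 38.1, 33.5 and 35.3 FPKM in HFD and at 44.0, 51.6 and 56.7 in BT. It was low in BT replicate 1, as Foxn3 was, and its adjusted p was 0.0326. Once each diet's mean was subtracted, Wdr12, Hgs, Gdf15, Ppil2, Irak2 and Samm50 were nearest, with r from 0.980 to 0.997. Gdf15, a stress hormone gene, fell (adjusted p = 0.00802), at 3.85, 7.49 and 9.87 FPKM against 37.9, 26.0 and 25.8 in HFD, yet shared with Foxn3 a high HFD replicate 1 and a low BT replicate 1. These are descriptions over 6 libraries that share 2 diets, picked as the highest among 10476 genes. Of the other forkhead members Foxk1 was the nearest to Foxn3 (r = 0.943) and Foxa3 the most opposed (r = -0.903). With diet means subtracted Foxk1 was still the nearest (r = 0.712), but Foxa1 was the most opposed (r = -0.563), with Foxa3 at -0.434.

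Among 9 tested genes linked to FOXN3, 1 was higher and 1 lower past the threshold, with a median difference of 0.17. Over all genes tested, the background for this and the following lists, 6.01% rose, 7.33% fell and the median difference was 0.07. Myc, the growth-promoting factor that FOXN3 is known to repress, stood at 1.24, 2.03 and 4.03 FPKM in HFD and at 19.4, 2.66 and 4.16 in BT, and did not pass (adjusted p = 0.198). Within each diet the library labelled replicate 1 held opposite ends for this pair of genes: Foxn3 was highest and Myc lowest in HFD replicate 1, and Foxn3 lowest and Myc highest in BT replicate 1. The other libraries did not follow one inverse order. This pair was looked at after the values were seen. BT replicate 1 was the lowest BT library for Mir22hg and Gdf15 too, but those were picked for their likeness to Foxn3, so nothing is read from it. Whether FOXN3 acts on Myc in these livers was not tested. Sin3a, a corepressor scaffold, rose by 0.86 (adjusted p = 0.0413), and kept the call in 1 of the 6 fits that left out 1 library. Gcgr, the glucagon receptor gene, differed by 0.02 (adjusted p = 0.927) and E2f5 by -0.04 (adjusted p = 0.868). Of 17 tested MYC target genes 2 rose, Mybbp1a by 0.51 and Slc2a1 by 0.54, and none fell. Each passed in 1 of the 6 fits that left out 1 library, and neither with the length and GC trend removed (adjusted p 0.0965 and 0.0730). With median-of-ratios scaling 1 MYC target was past the threshold as lower, and 1 as higher.

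**Figure D2:**
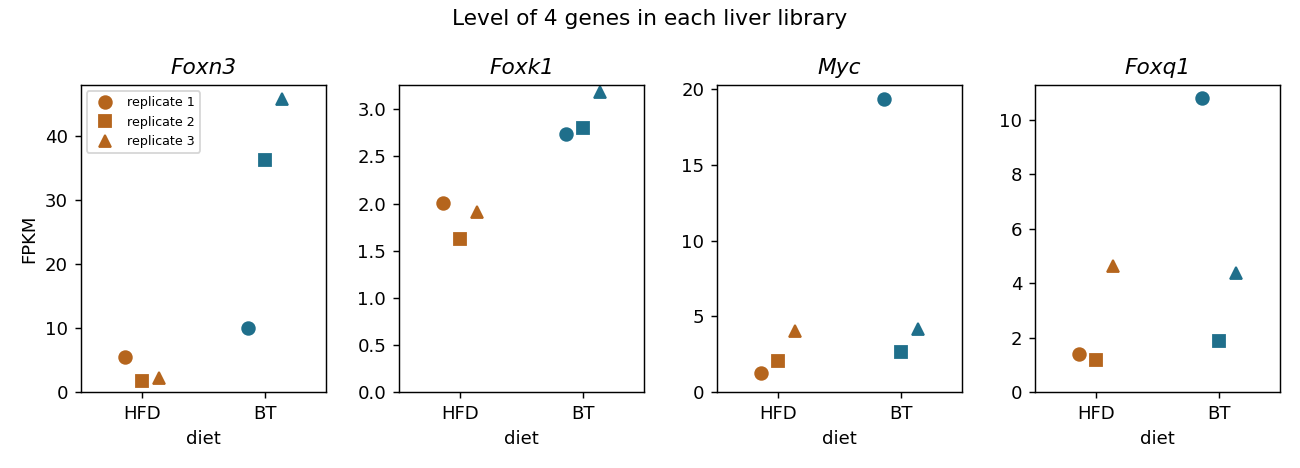
FPKM of Foxn3, Foxk1, Myc and Foxq1 in each HFD and BT library, with 1 marker shape per replicate number and each vertical axis starting at 0. BT replicate 1 is the lowest BT library for Foxn3 (10.0) and the highest for Myc (19.4) and Foxq1 (10.8).

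Foxa3 and Foxa2 were the most abundant forkhead mRNAs in HFD liver. Foxa3, the member kept highest in adult hepatocytes, stood at 25.6, 27.6 and 27.7 FPKM in HFD and at 22.5, 22.0 and 22.9 in BT. All 3 BT values lay below all 3 HFD values, with means of 27.0 ± 1.18 and 22.5 ± 0.481 FPKM (SD, n = 3 each) and a difference of -0.25 ± 0.09. It did so with little spread, smaller within a diet than that of all but 1.70% of genes tested. Foxa2 (HNF3 beta), linked to bile acid transport and lipid burning, stood at 12.6, 15.3 and 17.7 FPKM in HFD and 19.5, 16.2 and 20.4 in BT. These overlapped, and the difference was 0.29 ± 0.15. Foxa1 stood at 6.52, 5.15 and 8.58 FPKM in HFD and 11.9, 8.93 and 7.18 in BT, also overlapping, with a difference of 0.41 ± 0.21. The signs of these 3 differences were the same in all 17 settings, the smallest being -0.17 for Foxa3, 0.17 for Foxa2 and 0.24 for Foxa1. The summed FPKM of the FOXA genes was 48.9 ± 4.68 in HFD and 50.5 ± 3.38 in BT. Within that sum Foxa3 made up 57.3%, 57.4% and 51.3% in HFD and 41.8%, 46.6% and 45.4% in BT, without overlap.

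Foxa1 was the only member with the forkhead core in its RefSeq promoter window. That site is shown because FOXA proteins bind this motif, and it begins 141 bases before the start (chr12:57546234-57546263, minus strand, GRCm38.p6). Capitals mark the core, here as its reverse complement.
Foxa1 site: tatactgctttGTAAACAaagtgagggcca
The core is found in 3.65% of all promoter windows. Windows were at hand for 8 of the 10 members, 12 windows in all. Foxk1 and Foxo4 had none.

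Of 22 tested liver genes linked to FOXA, 2 rose and 3 fell, with a median difference of 0.03. Ttr, the thyroid hormone carrier and a known FOXA target, fell by 0.76 (adjusted p = 0.0157), and lost the call without any 1 of the BT libraries (highest adjusted p 0.0823). Abcb11 and Cyp8b1 also fell and Abcc2 rose. Of the 6 fits that left out 1 library, Abcb11 passed in 3, and Cyp8b1 and Abcc2 in 1 each. Cyp8b1 also missed the threshold with the length and GC trend removed (adjusted p = 0.0855). In the wider set of 19 tested liver transcription factors 3 rose (Xbp1 and Onecut2 among them) and 3 fell (Cebpb, Cebpa and Nr2f6). Onecut2 passed in 2 of the 6 fits that left out 1 library and Cebpa in 3. Neither passed with the length and GC trend removed (adjusted p 0.135 and 0.0723). Cebpb fell from 24.4, 25.5 and 36.6 FPKM to 11.3, 11.6 and 11.1 (-1.25 ± 0.15, adjusted p = 0.00561) and kept the call whichever library was left out, but missed the threshold with the length and GC trend removed (-0.62, adjusted p = 0.0759). Nr2f6, where exons of Ocel1 on the other strand cover 54.4% of the exon bases, stood at -0.09 with that trend removed (adjusted p = 0.649). Hnf4a differed by -0.06 (adjusted p = 0.749).

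The 3 FOXO genes were at middle levels and differed little between diets. Foxo1, the main FOXO of hepatic glucose output, stood at 4.91, 3.75 and 5.91 FPKM in HFD and 5.86, 5.76 and 5.37 in BT. The BT values fell inside the HFD range, and the difference was 0.20 ± 0.15. Foxo3 stood at 6.71, 5.07 and 5.80 FPKM in HFD and 7.16, 7.71 and 6.64 in BT. Its lowest BT value lay just under its highest HFD value, and the difference was 0.26 ± 0.13. Foxo4 stood at 8.29, 7.13 and 7.25 FPKM in HFD and 7.57, 6.82 and 8.68 in BT, with a difference of 0.02 ± 0.12 that turned to -0.05 with median-of-ratios scaling. The summed FPKM of the 3 FOXO genes was 19.9, 15.9 and 19.0 in HFD and 20.6, 20.3 and 20.7 in BT. HFD replicate 2 was the low HFD library for Foxo1, Foxo3 and Foxo4 alike, and also for Foxn3, Foxa1, Foxk1 and Foxk2. The FPKM of all genes summed to 930139 in that library, against 819783 and 814680 in HFD replicates 1 and 3. Without HFD replicate 2 the difference of Foxo1 was 0.06.

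FOXO activity is set mainly by phosphorylation and location, which mRNA does not show, so its target genes were also read. Of 30 tested target genes 1 rose and 3 fell, with a median difference of -0.08 against 0.07 over all genes tested. Without BT replicate 1 none was past the threshold in either direction. Cdkn1a, a cell cycle inhibitor that p53 also controls, fell from 5.47, 4.84 and 12.5 FPKM to 1.28, 0.745 and 1.82 (-1.84 ± 0.31, adjusted p = 0.0134). Without BT replicate 1 its adjusted p was 0.0543. Apoc3, an inhibitor of lipoprotein clearance, and Pdk4, which blocks entry of pyruvate into oxidation, also fell. Cdkn1b, a cell cycle inhibitor turned on by FOXO, rose from 6.43 ± 1.16 to 9.50 ± 0.900 FPKM (0.51 ± 0.14, adjusted p = 0.0468), and passed in 1 of the 6 fits that left out 1 library. The remaining 26 did not pass. Igfbp1, a classic target turned down by insulin, stood at 25.0, 10.1 and 26.8 FPKM in HFD and 7.04, 6.86 and 11.8 in BT (-1.10 ± 0.34, adjusted p = 0.0658). G6pc, the last enzyme of glucose release, stood at 82.5, 53.3 and 89.4 FPKM in HFD and 55.9, 87.4 and 45.1 in BT (-0.27 ± 0.26, adjusted p = 0.491). Irs2, an insulin receptor substrate, stood at 1.32, 0.762 and 1.44 FPKM in HFD and 2.28, 1.77 and 2.34 in BT (0.54 ± 0.16, adjusted p = 0.0590), without overlap.

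**Figure D3:**
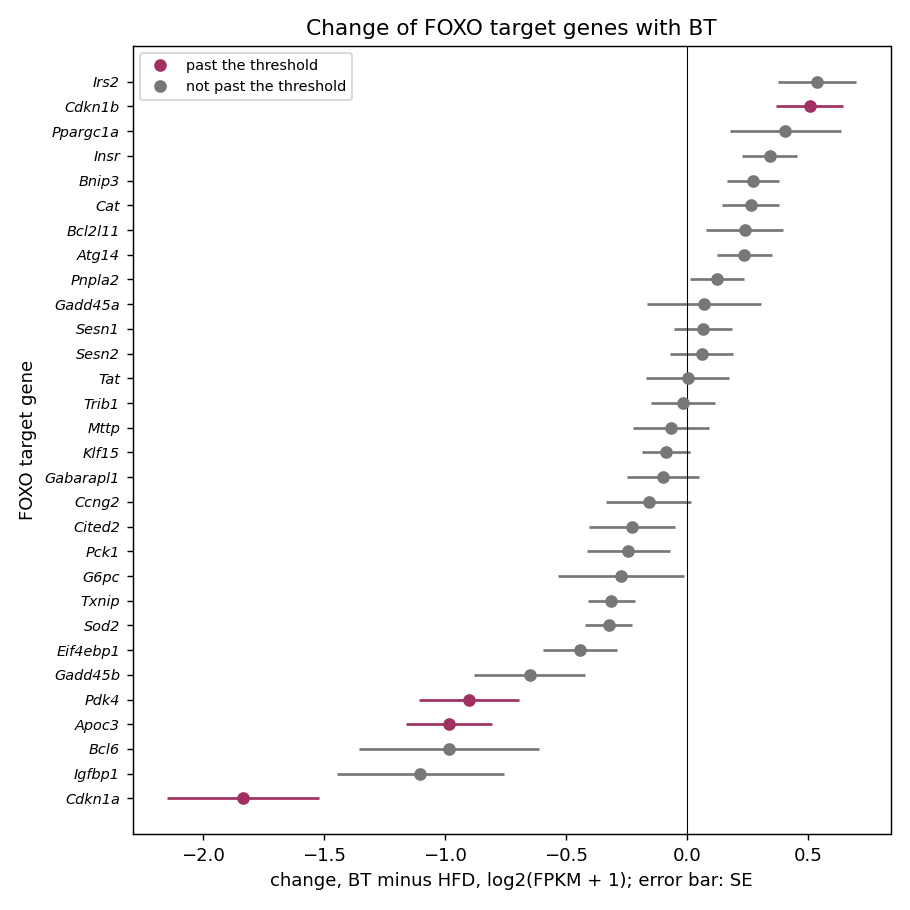
Difference between BT and HFD on the log2(FPKM + 1) scale, with limma's SE, for the 30 tested FOXO target genes, in order of size. The 4 genes past the threshold are Cdkn1a, Apoc3, Pdk4 and Cdkn1b. Of the 30, 13 lie above 0, against 6201 of 10476 over all genes tested.

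Among the promoter windows of the FOXO target genes, 4 of 33 (12.1%) held the forkhead core, against 3.65% of all windows. The insulin response element core was in 4 of 33 as well, against 6.28% of all. In the other gene lists the forkhead core was in 0% to 12.5% of windows, the highest in FOXP partners and NuRD. The insulin response element core was there in 0% to 13.6%, the highest in liver transcription factors. No enrichment is read from these shares. Both motifs were searched on both strands, and their letters differ, so no stretch matches both. The 30-base stretches with the match are shown, with the match in capitals, for the 7 genes that passed the filter, because FOXO proteins are known to bind such sites.
Igfbp1 (chr11:7197668-7197697, plus strand): gagctcacaagCAAAACAaacttattttga
G6pc (chr11:101367531-101367560, plus strand): ttttgtgtgccTGTTTTGctattttacgta
Irs2 (chr8:11008948-11008977, minus strand): gagtcacgtgtTGTTTTGctcttagttcag
Ccng2 (chr5:93267546-93267575, plus strand): cgtcgcagactCAAAACAaaaacaaggggt
Txnip (chr3:96557825-96557854, plus strand): ttggaggcctgGTAAACAagggccaagtag
Bcl2l11 (chr2:128125800-128125829, plus strand): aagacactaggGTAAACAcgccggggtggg
Sesn1 (chr10:41810585-41810614, plus strand): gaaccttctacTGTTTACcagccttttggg
All are from RefSeq windows on GRCm38.p6. Trim63, the other gene with the forkhead core, was under the filter. The 4 genes with the insulin response element core differed by -1.10 (Igfbp1), -0.27 (G6pc), 0.54 (Irs2) and -0.16 (Ccng2, adjusted p = 0.552). Those with the forkhead core differed by -0.31 (Txnip, adjusted p = 0.0620), 0.24 (Bcl2l11, adjusted p = 0.328) and 0.07 (Sesn1, adjusted p = 0.726). None of the 7 passed the threshold, and their signs were mixed within each motif.

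Of 22 tested kinases and insulin signalling genes that act on FOXO, 3 rose and none fell. Their median difference was 0.24, against 0.07 over all genes tested, of which 6.01% rose. Among all tested genes whose longest transcript had 5000 bases or more, the median was 0.23 and 10.9% rose. Akt1, the kinase that inactivates FOXO, rose from 12.8 ± 0.788 to 16.7 ± 0.623 FPKM (0.36 ± 0.10, adjusted p = 0.0478). Pik3cb, a catalytic subunit of the lipid kinase upstream of it, rose by 0.57 (adjusted p = 0.0430). Prkaa2, a catalytic subunit of the energy sensor AMPK, rose by 0.51 (adjusted p = 0.0447). Each passed in only 1 of the 6 fits that left out 1 library, and none passed with the length and GC trend removed (adjusted p 0.0525 to 0.158). Insr, the insulin receptor gene, did not pass (0.34, adjusted p = 0.0823). Of 20 tested proteins that bind or modify FOXO, 1 rose. This was Ogt, the enzyme that adds O-GlcNAc sugars to proteins, at 27.2, 28.1 and 46.6 FPKM in HFD and 77.7, 68.7 and 71.9 in BT (1.12 ± 0.19, adjusted p = 0.0136). Only without BT replicate 1 did it miss the threshold (adjusted p = 0.0613).

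The FOXK genes were low in both diets. Foxk1 stood at 2.01, 1.63 and 1.91 FPKM in HFD and 2.73, 2.80 and 3.18 in BT. All BT values lay above all HFD values, with means of 1.85 ± 0.198 and 2.90 ± 0.241 FPKM (SD, n = 3 each) and a difference of 0.46 ± 0.12. Foxk2 stood at 3.23, 2.56 and 3.73 FPKM in HFD and 3.11, 3.26 and 2.82 in BT, with the BT values inside the HFD range and a difference of -0.03 ± 0.14, which was 0.04 after rescaling each library to the same sum. Foxk1 made up 38.4%, 38.8% and 33.8% of the summed FPKM of the pair in HFD and 46.7%, 46.2% and 53.0% in BT. Of 20 tested partners of the FOXK proteins, which work with the SIN3A corepressor and the BAP1 deubiquitinase complex, 4 rose and none fell, with a median difference of 0.12. These were Ogt, Sin3a, Hcfc1 (0.43, adjusted p = 0.0418) and Asxl2 (0.60, adjusted p = 0.0462). Sin3a, Hcfc1 and Asxl2 passed only in the fit without HFD replicate 3 among those that left out 1 library. With the length and GC trend removed Ogt passed (0.90, adjusted p = 0.0232) and those 3 did not (adjusted p 0.0720 to 0.178).

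Foxp1, a repressor that competes with FOXO1 at gluconeogenic genes, stood at 3.91, 3.58 and 3.33 FPKM in HFD and 4.72, 3.72 and 4.98 in BT. BT replicate 2 lay among the HFD values, and the difference was 0.24 ± 0.13. Among 13 tested FOXP partners and subunits of the NuRD chromatin complex, 1 rose, Chd3, a chromatin remodeller, at 65.6, 76.4 and 87.4 FPKM in HFD and 120.2, 134.9 and 134.4 in BT (0.76 ± 0.12, adjusted p = 0.0120). Leaving out any 1 library kept it past the threshold, as did removal of the length and GC trend (0.55, adjusted p = 0.0179).

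Taking the 10 members by the fit over all genes, 2 lay past its threshold as higher in BT (Foxn3 and Foxk1), none as lower, and 8 did not pass, against 13.3% of all genes tested. Since the members were chosen with this comparison known, nothing is read from that count. Foxk1 was not past the threshold in any fit that left out 1 library, and Foxn3 was not past it without HFD replicate 2 or without BT replicate 2. Nor was Foxn3 past it without a filter or with robust empirical Bayes. The values of BT and HFD did not overlap in 3 members, Foxn3 and Foxk1 as higher and Foxa3 as lower, against 39.3% of all genes tested (23.2% as higher, 16.1% as lower). The median difference of the 10 was 0.25, with 8 above 0. Over all genes tested the median was 0.07, with 6201 of 10476 above 0.

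**Figure D4:**
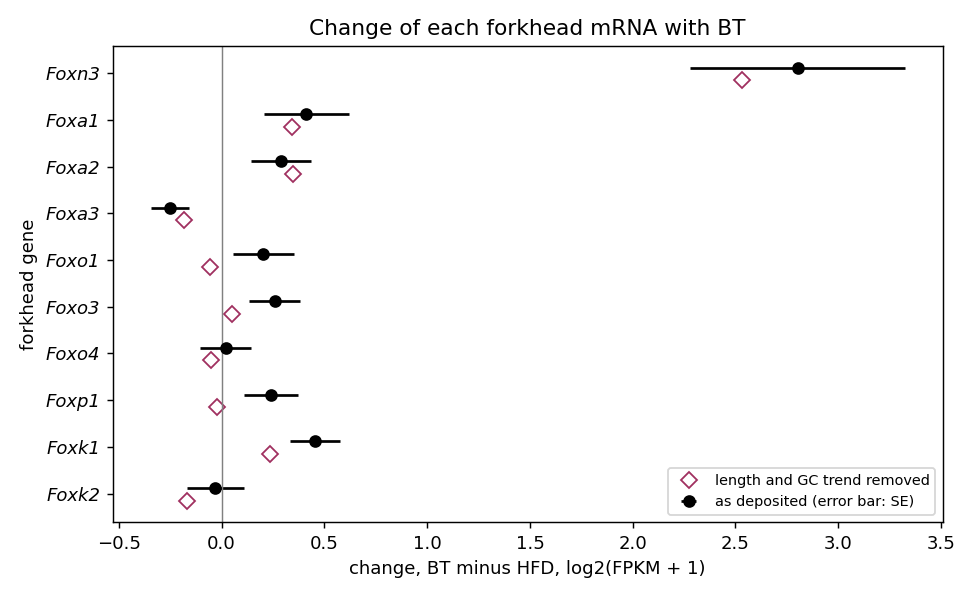
Difference between BT and HFD on the log2(FPKM + 1) scale for each forkhead gene, as deposited with limma's SE (filled) and with the trend of each library on transcript length and GC content removed (open). Foxn3 stays at 2.53, while Foxo1, Foxo3 and Foxp1 lie near 0 once the trend is removed.

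Transcript length moved with these differences. Over all genes tested the median difference was -0.47 for longest transcripts under 1000 bases and 0.23 for those of 5000 bases or more. Forkhead transcripts are long, with 6 of the 10 in that longest class (Foxn3, Foxo1, Foxo3, Foxp1, Foxk1 and Foxk2). With each library's trend on length and GC content removed, the median of the 10 went from 0.25 to 0.02, and that of all genes from 0.07 to 0.01. Foxo1 then stood at -0.06, Foxo3 at 0.05 and Foxp1 at -0.02. Foxk1 stood at 0.24 and was no longer past the threshold. Foxa1, Foxa2 and Foxa3 stood at 0.34, 0.35 and -0.18, and Foxn3 at 2.53. Whether the trend comes from the libraries or from the livers was not tested.

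**Figure D5:**
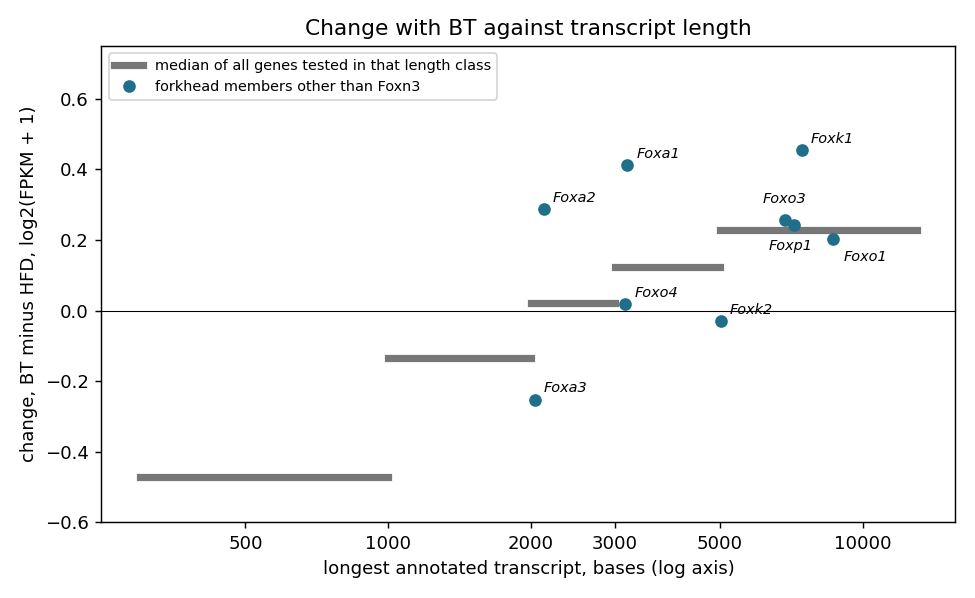
Difference between BT and HFD on the log2(FPKM + 1) scale against the longest annotated transcript (log axis) for the 9 members other than Foxn3, with the median of all genes tested in 5 length classes as bars. Foxo1, Foxo3 and Foxp1 lie close to the median of their class (0.23), and Foxk1 (0.46), Foxa1 (0.41) and Foxa2 (0.29) above theirs. Foxa3 (-0.25), Foxk2 (-0.03) and Foxo4 (0.02) lie below theirs.

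By mean level in HFD the order was Foxa3, Foxa2, Foxo4, Foxa1, Foxo3, Foxo1, Foxp1, Foxk2, Foxn3 and Foxk1, from 27.0 down to 1.85 FPKM. Only Foxa3 over Foxa2 and Foxa2 over Foxo4 were steps whose libraries did not overlap. The neighbours from Foxo4 down to Foxk1 overlapped with the next in the order. In BT the order was Foxn3, Foxa3, Foxa2, Foxa1, Foxo4, Foxo3, Foxo1, Foxp1, Foxk2 and Foxk1, from 30.7 down to 2.90 FPKM. Foxn3 lay above Foxa3 in 2 of the 3 BT libraries and below it in BT replicate 1. Without Foxn3 the other 9 members summed to 75.8 ± 5.33 FPKM in HFD and 81.4 ± 3.97 in BT.

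The table also lists 31 further forkhead genes. Of these 16 were listed at 0 in all libraries and 10 were above 0 somewhere but under a mean of 1 FPKM, the highest of them Foxp2. The 5 that could be tested, Foxj2, Foxj3, Foxn2, Foxp4 and Foxq1, all had positive differences (median 0.25), and none passed the threshold (limma, adjusted p 0.164 to 0.658). None was under an unadjusted p of 0.05 either, the lowest being 0.0557 for Foxj2. Over all genes tested 6201 of 10476 differences were above 0. Without a filter 1 of the further genes, under a mean of 1 FPKM, was past the threshold as lower in BT. Foxn2, the closest relative of Foxn3, stood at 3.64, 3.02 and 4.14 FPKM in HFD and 3.80, 3.86 and 4.86 in BT (0.17 ± 0.14), so it did not share the gap of Foxn3. Foxq1 stood at 1.39, 1.19 and 4.63 FPKM in HFD and 10.8, 1.88 and 4.38 in BT (0.88 ± 0.51), and its exons share 66.1% of their bases with a gene on the other strand. With Myc it had its highest value in BT replicate 1.

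Several forkhead genes are also expressed outside hepatocytes, Foxa1 and Foxa2 in bile duct cells and Foxo1, Foxo3 and Foxp1 in endothelial and immune cells. None of 8 macrophage, 7 sinusoidal endothelial and 2 bile duct markers tested passed the threshold between diets, which does not show that they were equal. Only those 2 of 7 bile duct markers could be tested. Summed endothelial markers ran from 50.4 to 65.9 FPKM in HFD and from 45.8 to 56.8 in BT, with Clec4g listed at 0 throughout. Summed bile duct markers ran from 79.5 to 146.4 FPKM in HFD and from 73.5 to 92.7 in BT. Stellate cell and fibroblast markers summed to 97.9 to 154.5 FPKM in HFD and 71.0 to 93.6 in BT without overlap, with Lrat listed at 0 and Col3a1 past the threshold as lower (adjusted p = 0.0354). The part of these cells in the forkhead differences was not tested.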

How the data were processed

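Liver mRNA libraries (TruSeq) of 3 HFD and 3 BT samples were compared, grouped by GEO's labels. The authors deposited 1 table of FPKM values per gene. Per the submitters' processing notes the tools included Cufflinks 2.1.1, STAR 2.4.0 and CASAVA 1.8.2, and the genome build is not given in the sources used here. FPKM are not counts, so no count test was run. Identifiers were named with GENCODE M21 (22671 of 23474). Values were tested as log2(FPKM + 1) for genes averaging 1 FPKM or more, with limma 3.58.1 in R 4.3.3 (variance trend, two-sided, 4 residual degrees of freedom) and Benjamini-Hochberg adjustment over 10476 genes at 0.05. The pseudocount shrinks differences of low genes. An exact permutation test of 3 against 3 cannot go below p = 0.1. The fit was tested on simulated data. Alternatives changed the pseudocount, filter, scaling, variance model, replicate block and libraries. Removal of the length and GC trend (natural splines, 5 degrees of freedom) was added after seeing the data. Genes named are the members, the 4 of each list with the smallest p (some are not reported here), the 5 further forkhead genes tested and the 6 nearest to Foxn3 by each measure. Others, such as Myc, Gcgr, E2f5, G6pc, Irs2, Txnip, Bcl2l11, Ccng2, Sesn1, Insr and Hnf4a, were chosen after their values were seen, for their known roles or promoter motifs. Members and lists were chosen with earlier results of these data known. Promoters are RefSeq windows from 250 bases before to 50 after a start.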

Additional observations from a re-analysis of the deposited data

How the results depend on the processing

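Foxn3 was higher in BT in all 17 settings, by 2.4 to 3.44 on the log2 scale. Calls over all genes were 200 higher and 345 lower without a filter, and 399 higher with the length and GC trend removed. Leaving out 1 library gave 49 to 855 higher and 124 to 814 lower, the fewest without BT replicate 1. Members past the threshold as higher numbered 2 as reported and 0 without a filter. At a mean of 5 FPKM only Foxn3 was past the threshold, but Foxk1, Foxk2 and Foxp1 were under that filter and not tested. Only Foxn3 was past it with the same sum per library, with quantile normalization and with the trend removed. With robust empirical Bayes only Foxk1 was past it, and Foxn3 was not. On leaving out 1 library such members numbered 0 to 1. The cause was not tested. Under median-of-ratios scaling 448 calls were higher and 884 lower. More were higher than lower in other settings, 614 to 557 with the same sum per library and 855 to 681 without HFD replicate 3. Same-numbered libraries correlated at 0.163, 0.0972 and 0.147 after removal of diet means, each best with its own number, a hint of pairing from the data. The labels name no shared animal or batch and not every pair exceeded 0.1, so the fit reported has no block. The replicate block gave 859 higher and 949 lower, with 2 members higher. Of 26 list and marker genes past the threshold, 12 passed with the trend removed and 2 in all 6 fits that left out 1 library. Foxn3 and Foxk1 kept their sign in every setting run, but smaller differences of members changed sign: with the trend removed Foxo1 went from 0.20 to -0.06 and Foxp1 from 0.24 to -0.02, Foxo4 went from 0.02 to -0.05 with median-of-ratios scaling, and Foxk2 from -0.03 to 0.04 with the same sum per library. With 3 libraries a group, spread between libraries limits precision more than depth does for Foxn3, whose lowest value stood for about 190 fragments.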
